A study of Homo sapiens with 47 samples.

Results

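The genes described here encode the transcription kinases CDK11, CDK12 and CDK13 and the proteins that bind them: CDK11A, CDK11B, CCNL1, CCNL2, SAP30BP, CDK12, CDK13 and CCNK. They were chosen by symbol and make up 8 of the 58395 genes in the RNA-seq count table. Because CDK11A and CDK11B are near-identical copies, their summed counts were analysed as well. All 8 were among the 28025 genes with enough counts to be tested (filterByExpr of edgeR).

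The study examined how Mediator, through its subunit MED26, acts on transcription termination in human cells. Ribosomal RNA-depleted total RNA was sequenced from wild-type HEK293T cells, a line derived from human embryonic kidney, and from EAF1-mutant HEK293T cells, with 3 libraries of each. The mutant is a single line picked after CRISPR knock-in, in which the EAF1 gene carries changes in both alleles that turn 4 residues of the MED26-binding site into alanines, so the mutation cannot be told apart from other differences of that line. The comparison asks which of the kinase RNAs differed in cells whose EAF1 lacks those residues. The study's methods speak of biological replicates, but the labels do not say that libraries came from separate cultures, so p-values measure the spread between these samples. Total counts were 59137210, 52541541 and 55637032 in the wild-type libraries, against 57198018, 53369621 and 66611451 in the EAF1-mutant libraries. Values per library are CPM, counts scaled to the TMM-adjusted library total.

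RNA of EAF1 itself was counted at 57.5, 58.4 and 56.5 CPM in the wild-type libraries and at 19.7, 17.9 and 18.8 CPM in the EAF1-mutant libraries. The groups did not overlap, and EAF1 was lower in the mutant (log2 fold change -1.61 ± 0.05 SE; edgeR quasi-likelihood test, Benjamini-Hochberg adjusted p = 2.48e-18). A point mutation leaves the RNA countable, so this level does not check the labels.

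Cyclin-dependent kinases of this group act on RNA polymerase II and on the machinery that processes its transcripts. CDK11 binds cyclin L and SAP30BP, phosphorylates the splicing factor SF3B1 so that the spliceosome is activated, and also acts at replication-dependent histone (RDH) genes. CDK12 and CDK13 each bind cyclin K and phosphorylate the carboxy-terminal domain (CTD) of RNA polymerase II during elongation, and CDK12 is known for sustaining the expression of long DNA repair genes.

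CDK11A and CDK11B lie near each other on the short arm of chromosome 1, both on the minus strand (GRCh38, GENCODE v44). CDK11A (ENSG00000008128) spans chr1:1702379-1724357 and CDK11B (ENSG00000248333) spans chr1:1635225-1659012. Their longest coding sequences have 2352 and 2388 bases, and over 2352 aligned bases they differ by 25 substitutions, an identity of 98.9%, with 36 further bases in gaps. The longest identical run is 646 bases, well over the length of a single read. The stretch printed here is the 90-base coding window within an exon of each gene where the copies differ most, and it is shown because only such positions let reads be assigned to a copy. Capitals mark the 5 differing bases. The stretch lies at chr1:1703537-1703626 in CDK11A and at chr1:1636394-1636483 in CDK11B, on the minus strand of GRCh38, and is written 5′ to 3′ along the RNA.
CDK11A: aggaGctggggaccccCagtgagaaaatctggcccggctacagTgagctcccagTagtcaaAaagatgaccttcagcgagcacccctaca
CDK11B: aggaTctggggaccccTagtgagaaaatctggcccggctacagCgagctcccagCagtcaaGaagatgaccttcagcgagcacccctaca

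Of the 6296 different 100-base windows in annotated CDK11A transcripts, 26.9% also occur in CDK11B transcripts, and of the 4276 windows of CDK11B, 39.6% occur in CDK11A. CDK11A also shares 2448 exon bases on the same strand with a long noncoding RNA gene, ENSG00000268575, which holds 37.3% of the CDK11A windows and 23.5% of the CDK11B windows. For the other 6 members, none of the windows occurs in transcripts of another gene. By comparison, the coding sequences of CDK12 and CDK13 are 70.8% identical over 3874 aligned bases, and those of CCNL1 and CCNL2 are 69.8% identical over 1448. The sources used here do not say how reads that map to several places were counted. The division of counts between CDK11A, CDK11B and ENSG00000268575 is uncertain, and the CDK11 sum is the firmer value. CDK11B also overlaps 39 exon bases of MMP23B, and CCNL1 overlaps 93 of a Y RNA gene, each on the opposite strand.

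The starts of the CDK11 genes are alike as well. RefSeq promoter sequences (GRCh38.p14, 300 bases around the start) matched all 8 members by symbol. Those of CDK11A and CDK11B are identical at 237 of 256 aligned bases, 92.6%, with 88 further bases in gaps. They are printed because these genes had higher RNA together in the mutant, as did most tested genes around them. Whether the promoters have a part in this was not tested. Capitals mark their longest identical run, 50 bases. The CDK11A promoter is at chr1:1724308-1724607 and the CDK11B promoter at chr1:1658955-1659254, both on the minus strand.
CDK11A promoter: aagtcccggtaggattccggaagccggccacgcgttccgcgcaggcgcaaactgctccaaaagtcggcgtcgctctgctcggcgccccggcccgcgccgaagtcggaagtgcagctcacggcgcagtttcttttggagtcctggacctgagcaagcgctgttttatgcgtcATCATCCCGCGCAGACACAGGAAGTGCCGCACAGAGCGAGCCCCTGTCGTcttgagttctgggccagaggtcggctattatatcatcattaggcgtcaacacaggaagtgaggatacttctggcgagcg
CDK11B promoter: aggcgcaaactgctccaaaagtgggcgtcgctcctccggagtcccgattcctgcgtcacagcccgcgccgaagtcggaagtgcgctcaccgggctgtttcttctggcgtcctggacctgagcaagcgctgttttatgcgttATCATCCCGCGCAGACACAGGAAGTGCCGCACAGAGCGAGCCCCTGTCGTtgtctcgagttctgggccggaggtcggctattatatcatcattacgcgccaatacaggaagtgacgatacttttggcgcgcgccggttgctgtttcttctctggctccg

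Both strands of the 8 promoters were searched for CGGAAGT, one form of the site bound by ETS factors, and other forms were not searched. TGACGT, the shorter form of the cyclic AMP response element, was searched likewise. Both motifs were chosen after the counts had been seen. CGGAAGT occurs in 4 of 8 members (CDK11A, CDK11B, SAP30BP and CDK13) and in 6.83% of 35116 RefSeq promoters. The promoters of CDK11A and CDK11B are alike, so they are not separate cases. TGACGT occurs in 4 of 8 members (CCNL1, SAP30BP, CDK13 and CCNK) and in 7.98% of the promoters. The 2 motifs do not overlap each other in any member, and no match to either was found in CCNL2 or CDK12.

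A gene was called where its adjusted p was below 0.01 with a log2 fold change beyond 0.5 in either direction, thresholds that come from the study's methods. By this rule 3 of 8 members were higher in EAF1-mutant cells (CDK11A, CDK11B and CCNL2), 1 was lower (CCNL1) and 4 were not called (SAP30BP, CDK12, CDK13 and CCNK). Over all 28025 tested genes 20.3% were called, 11% as higher and 9.36% as lower. The members' median log2 fold change was 0.15, beside 0.01 over all tested genes. The libraries of the groups did not overlap for 8 of 8 members, and the same held for 57.3% of all tested genes. In these bulk samples, a change in RNA per cell and a change in the share of cells with that RNA cannot be told apart.

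CDK11A was at 52.2, 57.9 and 62.3 CPM in the wild-type libraries and at 86.3, 92.7 and 90.5 CPM in the EAF1-mutant libraries. Every mutant library lay above every wild-type library, and the wild-type libraries were spread more widely than the mutant ones. The log2 fold change was 0.64 (95% interval 0.54 to 0.75, adjusted p = 1.52e-10, edgeR quasi-likelihood test with Benjamini-Hochberg adjustment). CDK11B, the other copy of the kinase gene, was at 70.8, 75.2 and 80.4 CPM in wild type and at 106.2, 111.7 and 113.7 CPM in the mutant. Its groups were likewise apart, with a log2 fold change of 0.55 (95% interval 0.46 to 0.64, adjusted p = 2.99e-10, edgeR). Without wild-type replicate 1, the lowest of its group, the CDK11B value was 0.49 and no longer past the fold limit.

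The CDK11 sum was at 123.0, 133.1 and 142.7 CPM in wild type and at 192.5, 204.3 and 204.1 CPM in the mutant. The lowest mutant library was well above the highest wild-type library. The sum was higher by 50.7% (95% interval 41.2% to 60.8%; log2 fold change 0.59 ± 0.05 SE; edgeR adjusted p = 1.11e-10 over 28024 genes), and it was past the threshold in 15 of 15 alternatives. CDK11A held 42.4% to 43.6% of the sum in the wild-type libraries and 44.3% to 45.4% in the mutant libraries. ENSG00000268575, the overlapping noncoding RNA gene, rose from 63.4 to 101.5 CPM on average (log2 fold change 0.68, edgeR adjusted p = 4.68e-11). With this noncoding gene added to the sum, an alternative chosen after seeing the data, the log2 fold change was 0.62.

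The cyclins L, regulatory subunits of CDK11, moved in opposite directions. CCNL1 (ENSG00000163660, chr3:157146508-157160760, GRCh38), which encodes cyclin L1, was at 115.2, 113.3 and 106.1 CPM in wild type and at 79.4, 76.3 and 75.1 CPM in the mutant. All mutant libraries lay below the wild-type range, and CCNL1 fell by 0.54 on the log2 scale (95% interval -0.62 to -0.45, adjusted p = 9.96e-11, edgeR). Its size was near the fold limit, and its call was lost with library totals alone (-0.42) and with upper-quartile factors (-0.49). CCNL2 (ENSG00000221978, chr1:1385711-1399335), which encodes cyclin L2, was at 135.8, 127.4 and 127.0 CPM in wild type and at 208.7, 207.2 and 217.7 CPM in the mutant. The groups were far apart next to the spread within each, and the log2 fold change was 0.70 (95% interval 0.62 to 0.78, adjusted p = 3.32e-13, edgeR). The increase of 62.4% was the largest change among the 8 members, and 17.0% of all tested genes had a larger one in either direction.

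SAP30BP (ENSG00000161526, chr17:75667251-75708062) encodes the partner that joins CDK11 and cyclin L in an active complex. It was at 47.8, 44.2 and 45.7 CPM in wild type and at 53.0, 52.2 and 52.9 CPM in the mutant. The groups were apart by a small margin. The log2 fold change of 0.20 (95% interval 0.11 to 0.29, adjusted p = 2.74e-04, edgeR) was below the fold limit, and with library totals alone it was 0.32.

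**Figure D1:**
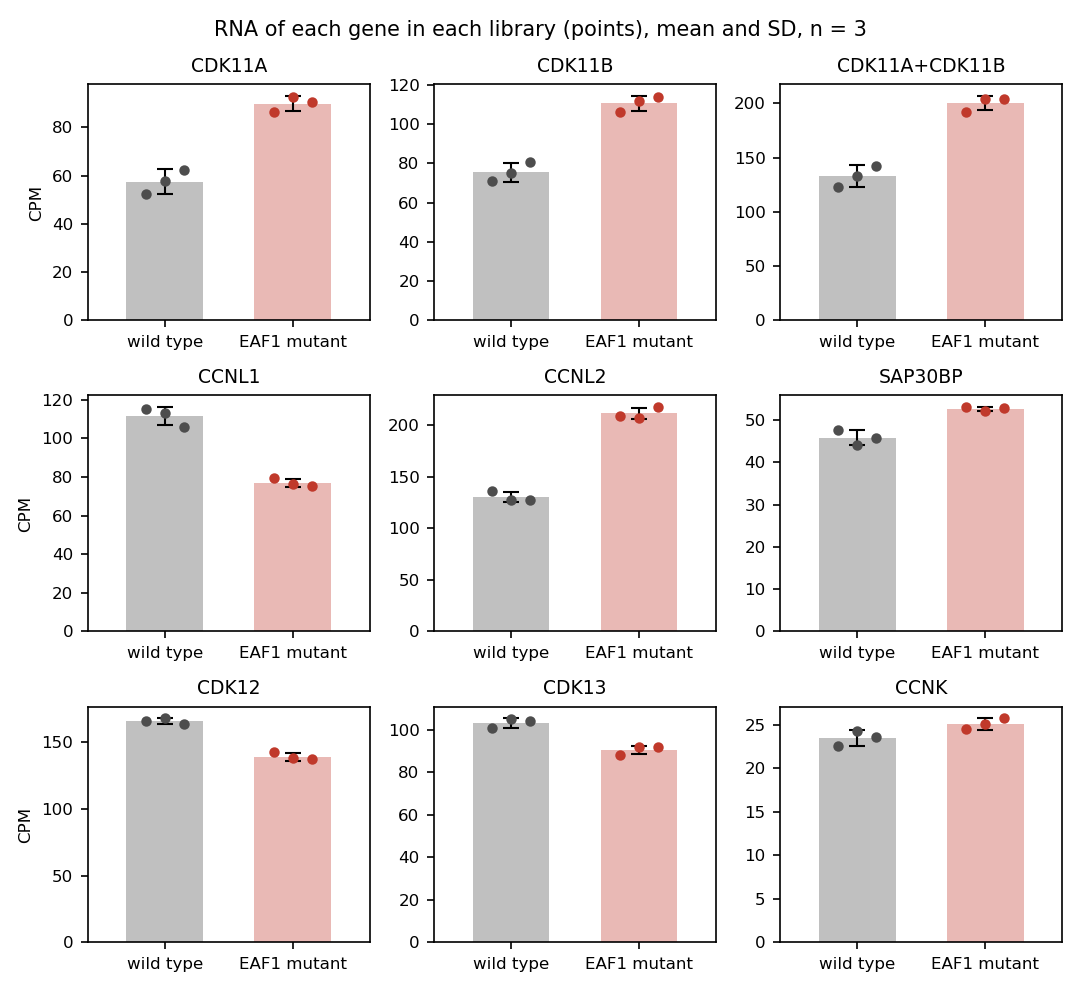
RNA of each gene and of the CDK11 sum in CPM, with each library as a point (wild type grey, EAF1 mutant red), bars for means and error bars for the SD (n = 3 libraries). CDK11A, CDK11B and CCNL2 sat higher and CCNL1 lower in all 3 mutant libraries, while CCNK differed least, at 23.5 against 25.1 CPM on average.

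CDK12 (ENSG00000167258, chr17:39461486-39567559), a CTD kinase, was at 165.9, 168.1 and 163.3 CPM in wild type and at 142.5, 137.7 and 137.0 CPM in the mutant. The groups were clearly apart, with each spread small next to the gap. The log2 fold change of -0.25 (95% interval -0.33 to -0.18, adjusted p = 2.38e-06, edgeR) was within the fold limit, so CDK12 was not called. CDK13 (ENSG00000065883, chr7:39950121-40099580), its closest relative, was at 100.6, 105.0 and 104.3 CPM in wild type and at 88.3, 91.7 and 91.7 CPM in the mutant. Its mutant libraries also lay below all wild-type libraries, and its log2 fold change of -0.19 (95% interval -0.27 to -0.11, adjusted p = 1.69e-04, edgeR) was not past the limit either. With library totals alone, CDK12 was at -0.14 and CDK13 at -0.07.

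CCNK (ENSG00000090061, chr14:99481169-99535044) encodes cyclin K, the subunit that CDK12 and CDK13 need for activity. It was at 22.5, 24.2 and 23.6 CPM in wild type and at 24.5, 25.0 and 25.8 CPM in the mutant. The groups nearly touched. The log2 fold change was 0.10 with a 95% interval from just under 0 to 0.20 (adjusted p = 0.0890, edgeR), and the upper bound is an increase of 14.7% with TMM scaling. The value was 0.21 with library totals alone and 0.06 without wild-type replicate 1, and the adjusted p ranged from 5.68e-04 to 0.399 over the alternatives (edgeR or DESeq2). Of the 8220 exon bases of CCNK, 4893 overlap CCDC85C, a gene on the opposite strand with 86.5 CPM in wild type and 100.0 in the mutant (log2 fold change 0.21, not called). The library kit marks strand, but no source used here gives the strand setting of the counting, so the counts of CCNK are uncertain.

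**Figure D2:**
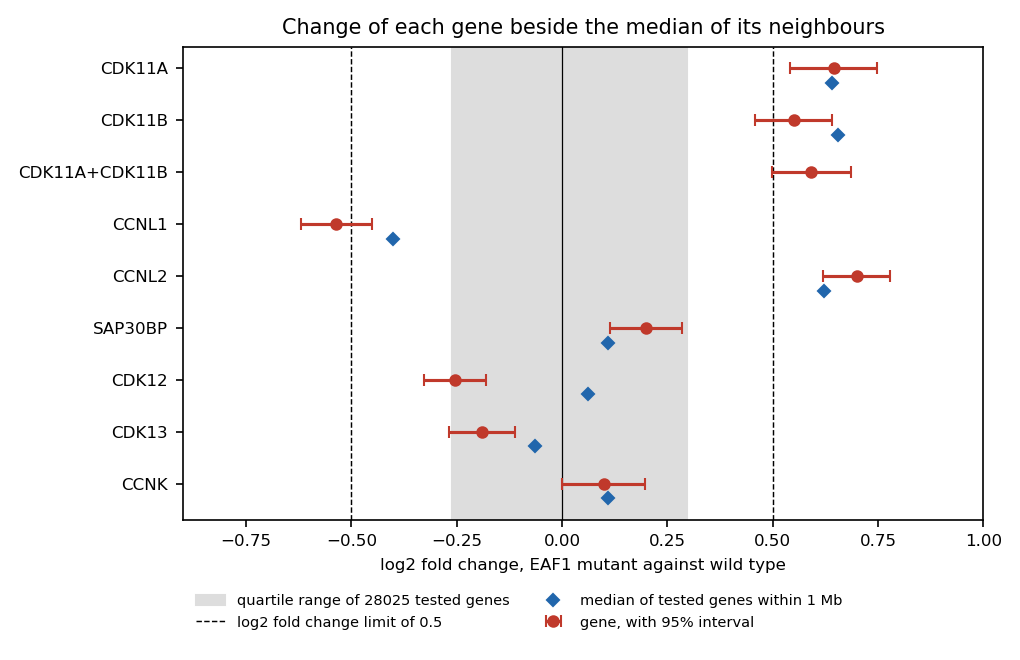
Log2 fold change of each gene (red, with its 95% interval) beside the median of the tested genes within 1 Mb of its start (blue diamonds), the quartile range of all tested genes (grey) and the fold limit of 0.5 (dashed). CDK11A at 0.64, CDK11B at 0.55 and CCNL2 at 0.70 have neighbours' medians of 0.64, 0.65 and 0.62, whereas CDK12 at -0.25 lies left of its neighbours' median of 0.06.

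Ratios between members within a library do not depend on scaling between libraries. The ratio of CCNL1 to CCNL2 counts was 0.849, 0.889 and 0.835 in wild type and 0.3804, 0.368 and 0.345 in the mutant. The groups were far apart, and the difference was -1.23 on the log2 scale (two-sided exact permutation test, p = 0.1, 0.133 after Benjamini-Hochberg adjustment over 4 ratios). The smallest p that 3 against 3 libraries allow is 0.1, so no ratio could pass 0.05. The ratio of CDK12 plus CDK13 to CCNK was 11.9, 11.3 and 11.3 in wild type and 9.44, 9.16 and 8.87 in the mutant. The groups did not overlap, and the difference was -0.33 (exact permutation p = 0.1, adjusted 0.133). The uncertainty of the CCNK counts applies to this ratio too. CDK11A to CDK11B differed by 0.10 (exact permutation p = 0.1, adjusted 0.133), from 0.737 to 0.774 in wild type and from 0.796 to 0.830 in the mutant. CDK12 to CDK13 differed by -0.06 (exact permutation p = 0.3), and its libraries overlapped between the groups.

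Levels were compared between genes per kilobase of the longest annotated transcript (CPM per kb). In wild type the order was CCNL2 at 29.2 ± 1.11, CDK11B at 25.2 ± 1.61, CCNL1 at 23.2 ± 1.01, CDK12 at 20.01 ± 0.286, CDK11A at 19.3 ± 1.69, SAP30BP at 16.5 ± 0.645, CDK13 at 10.8 ± 0.246 and CCNK at 4.17 ± 0.157 CPM per kb (SD, n = 3). The libraries of CDK11B and CCNL1 overlapped, as did those of CDK12 and CDK11A, so these neighbours in the order did not differ beyond their spread. In the mutant, CCNL1 at 16.0 CPM per kb was in place 6 and CDK11A at 30.1 in place 3, but the mutant libraries of CCNL1 overlapped those of CDK12 in place 5. With the union of all exons as the length, CDK11B at 21.6 came before CCNL2 at 19.0 in wild type, and CCNL1 was in place 4. Cyclin K RNA was the least abundant by each length, at 2.85 CPM per kb of all exons. Its counts are uncertain, since 4893 of its 8220 exon bases overlap CCDC85C, so its place in the order is uncertain too.

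**Figure D3:**
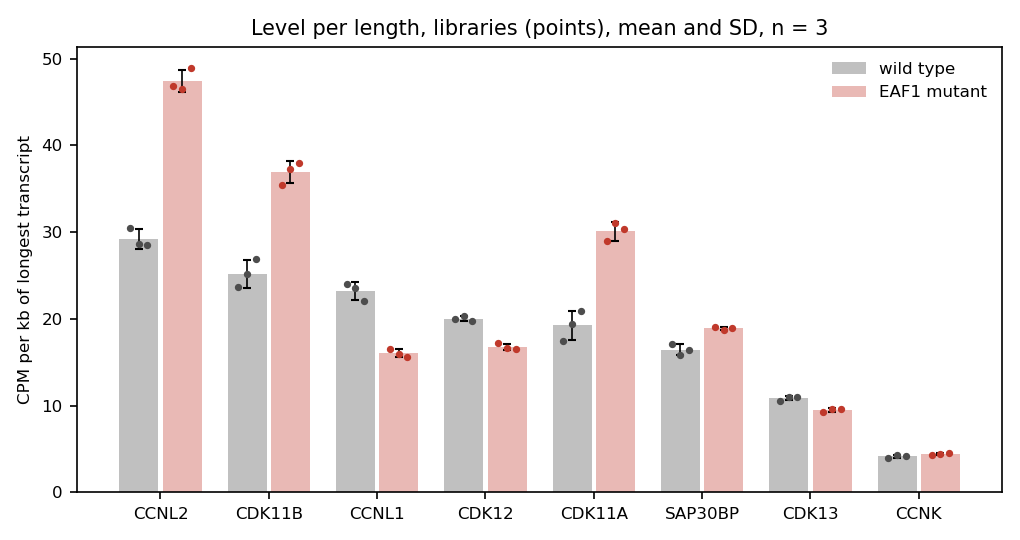
Level of each gene in CPM per kb of its longest transcript, for wild type (grey) and EAF1 mutant (red), with libraries as points, bars for means and error bars for the SD (n = 3). CCNL2 is highest in both groups, and CCNK, whose counts are uncertain, is lowest. CCNL1 is in place 3 in wild type and place 6 in the mutant, where its libraries overlap those of CDK12.

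The 3 members that were higher in the mutant share a position. CDK11A, CDK11B and CCNL2 all lie near the end of the short arm of chromosome 1, and the tested genes around them were also higher. Within 1 Mb of the CDK11A start, 98 other genes were tested, with a median log2 fold change of 0.64, and 62 of them were called higher and 0 lower (edgeR; 56 and 0 with DESeq2). At an unadjusted p under 0.05, edgeR gave 86 higher and 3 lower, beside 28.5% higher and 27.8% lower over all tested genes. Around CDK11B the median of 100 genes was 0.65, and around CCNL2 that of 103 genes was 0.62. CDK11A differed from the median of its neighbours by 0.0048, CDK11B by -0.10 and CCNL2 by 0.08, and the median around CDK11B lay above the 95% interval of CDK11B. Within 0.5 Mb the medians were 0.57 over 54 genes around CDK11A, 0.56 over 52 around CDK11B and 0.62 over 65 around CCNL2, and that around CDK11B was inside its interval. Whether these members differed from their neighbours was not tested.

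Joined, the windows of these 3 members hold 112 other tested genes, with a median log2 fold change of 0.63, of which 66 (58.9%) were higher and 103 lay above 0. Of the 27585 other tested genes with a position, 10.8% were higher and 14103 lay above 0. In a list of 7 genes in and beside the duplicated block of CDK11, 6 were higher. The largest increases were in MMP23B at 0.82 and MMP23A at 0.74, both at low levels (1.74 and 1.29 CPM in wild type). How far these 7 genes share sequence was not examined, so the division of counts between copies is uncertain here too. Without these 7 genes and ENSG00000268575, the median of the other 104 genes was 0.62. Taken library by library over 82 genes of at least 1 CPM, the median difference from the wild-type mean was 0.53, 0.59 and 0.56 in the mutant libraries and 0.04, -0.07 and 0.03 in the wild-type ones. All mutant libraries were shifted by a like amount.

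The extent of the region was followed along chromosome 1, in steps chosen after the values had been seen. The median log2 fold change was 0.70 over the 52 tested genes of the first Mb and 0.57 over the 57 of the next. In the 6 further steps of 1 Mb up to 10 Mb that hold at least 5 tested genes (12 to 25 each), it lay between 0.32 and 0.68. It was 0.40 over 165 genes between 10 and 20 Mb, 0.05 over 211 between 20 and 30 Mb, 0.11 over 172 between 30 and 40 Mb and 0.37 over 177 between 40 and 50 Mb. In the 7 steps of 10 Mb from 50 to 120 Mb it lay between -0.40 and -0.05. Chromosome ends with at least 20 tested genes in their last 3 Mb numbered 41. Among them, the end of the chromosome 1 short arm had the second highest median, 0.62 over 130 genes. The highest was that of the far end of chromosome 19, 0.72 over 140. The lowest was that of the first end of chromosome 14, -0.60 over 58. The median GC content of transcripts was 50.3% in the first Mb and 63.3% in the next. In the 6 further steps up to 10 Mb it was, in order, 60.2%, 57.0%, 57.5%, 43.1%, 47.2% and 52.1%. The median log2 fold changes of those steps were 0.68, 0.63, 0.55, 0.32, 0.67 and 0.50. GC content was 54.0% between 10 and 20 Mb, 51.5% between 20 and 30 Mb, 50.3% between 30 and 40 Mb and 50.5% between 40 and 50 Mb. It was from 38.3% to 45.4% in the steps beyond, where the medians were below 0. Other tested genes with a GC content in the middle range of the 112, from 50.3% to 65.2%, had a median log2 fold change of 0.06 over 10519 genes. Whether GC content has a part in these fold changes was not tested.

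The tested genes around the other members were described in the same way. Around CCNL1, on the long arm of chromosome 3, the 15 tested genes had a median of -0.40, with 4 lower and 2 higher (4 and 1 with DESeq2; 8 and 2 at an unadjusted p under 0.05, edgeR), and 8 of the 15 lay above CCNL1. Within 0.5 Mb that median was -0.20 over 11 genes. CDK12 lay farthest from its neighbours' median of all 8 members, by -0.32. The 66 genes within 1 Mb had a median of 0.06, 61 of them lay above CDK12, 7 were called higher (4 with DESeq2) and 0 were called lower with edgeR or DESeq2, beside 11% and 9.36% of all tested genes. At an unadjusted p under 0.05 (edgeR), 17 were higher and 9 lower, beside all-gene shares of 28.5% and 27.8%. Within 0.5 Mb the median around CDK12 was 0.18 over 24 genes. Around CDK13 the median of 19 genes was -0.06, and 11 of them lay above CDK13. The median was 0.11 over 92 genes around SAP30BP and 0.11 over 27 genes around CCNK, and these members differed from it by 0.09 and -0.01. Within 0.5 Mb the median around CCNK was 0.26 over 11 genes, above the 95% interval of CCNK. None of these differences from neighbours was tested.

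**Figure D4:**
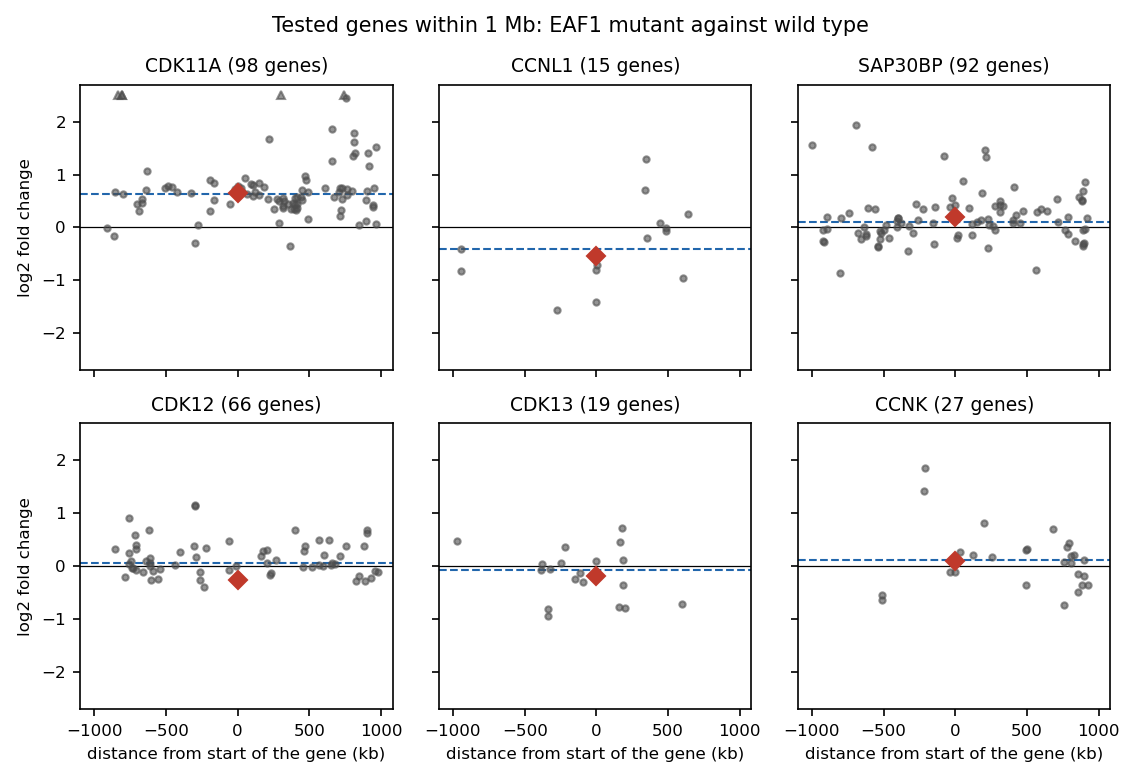
Log2 fold change of each tested gene within 1 Mb (grey) against its distance in kb from the start of the named gene (red diamond), with positive distances downstream, dashed lines at the neighbours' median and triangles for genes beyond the axis. Genes around CDK11A lie mostly near 0.64, and CDK12 lies under 61 of its 66 neighbours.

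Other genes of these pathways were described from lists, by the same thresholds and beside the all-gene shares of 11% higher and 9.36% lower. At an unadjusted p under 0.05, those shares are 28.5% and 27.8%. The counts are edgeR's, and DESeq2 gave the same ones except where stated. Of 11 other transcription kinases and their cyclins, 0 were higher (4 higher and 3 lower at an unadjusted p under 0.05) and 1 was lower, CCNQ, the cyclin of CDK10, at -0.80 (27.6 to 15.8 CPM), and the median was 0.02. Of 16 phosphatases and readers of the CTD, 2 were higher (1 with DESeq2) and 2 lower, with a median of -0.01, and at an unadjusted p under 0.05 there were 3 higher and 7 lower. SSU72, a CTD phosphatase whose gene is also in the list beside CDK11, was at 0.61 and the CTD phosphatase CTDSP1 at 0.50, while its relative CTDSPL fell by 0.95 and the CTD reader RPRD1A by 0.69 on the log2 scale.

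Of 13 elongation factors, 0 were higher and 2 were lower (4 and 9 at an unadjusted p under 0.05), with a median of -0.15. The lower genes were SUPT16H, a subunit of the histone chaperone FACT, at -0.73 (473.3 to 284.9 CPM), and SETD2, the methyltransferase that modifies histone H3 behind elongating polymerase, at -0.63. The SF3 complex and splicing partners of CDK11, 16 genes, had 0 higher and 2 lower (2 and 10 at an unadjusted p under 0.05), with a median of -0.13. Those called lower were SF3B6 at -0.60 and RBM17 at -0.56. SF3B1, the substrate of CDK11, was at 534.7 CPM in wild type and 488.0 in the mutant (log2 fold change -0.13, not called). Of 10 genes for RDH mRNA processing, 0 were called, and the most abundant, CPSF2, a subunit of the cleavage machinery, was at 154.8 CPM in wild type and 135.5 in the mutant (log2 fold change -0.19). At an unadjusted p under 0.05, edgeR gave 3 higher and 4 lower among these 10.

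DNA repair genes are of interest beside CDK12. Of 16, 0 were higher and 2 were lower (1 and 7 at an unadjusted p under 0.05), with a median of -0.09 and 12 of 16 below 0. Of the 27585 tested genes outside the windows on chromosome 1, 14103 lay above 0. Whether the repair genes differ from other genes as a group was not tested. FANCD2, a Fanconi anemia protein, fell by 1.78 on the log2 scale (178.3 to 52.01 CPM), and CHEK1, a checkpoint kinase, by 0.50 (72.8 to 51.4 CPM). Of the listed genes, 5 are on chromosome 3, the chromosome of EAF1 and CCNL1. FANCD2, SETD2 and CTDSPL were called lower, and ATR (-0.23) and TOPBP1 (0.02) were not called. Only the chromosome is given here, and the arms on which these genes lie were not compared. The other genes called lower in the pathway lists are on chromosomes X (CCNQ), 18 (RPRD1A), 14 (SUPT16H), 2 (SF3B6), 10 (RBM17) and 11 (CHEK1). Whether position has a part in the values of any listed gene was not tested. BRCA1, the breast cancer susceptibility gene, was at -0.07 and was not called.

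**Figure D5:**
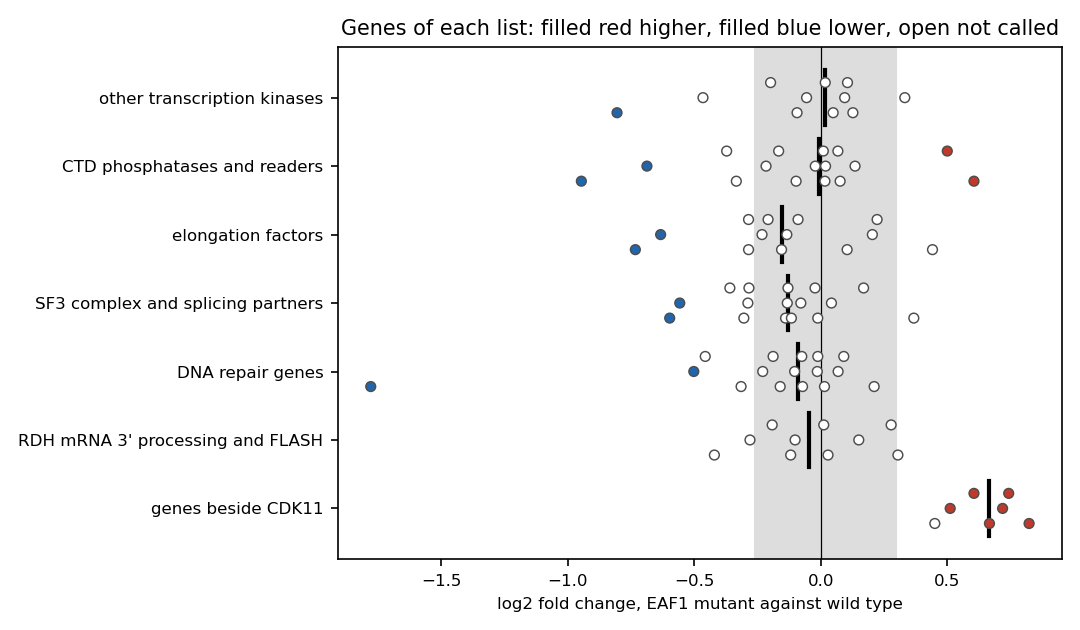
Log2 fold change of each gene of the pathway lists (filled red higher, filled blue lower, open not called), with black bars for each list's median and the quartile range of all tested genes in grey. The list of genes beside CDK11 has a median of 0.67, while the medians of the other lists lie between -0.15 and 0.02.

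The genes whose log2 CPM over the 6 libraries was most like a member were searched among those of at least 10 CPM, as a description. For the CDK11 sum these were ENSG00000268575, VEGFB and TET3, with Pearson r from 0.998 to 0.9997, and 1229 of 11416 genes had r above 0.95. For CDK12 they were GMFB, IBTK and ZNF655, and 2882 of 11417 genes had r above 0.95. For CDK13 they were PRKCD, C11orf24 and TCF4, and 1506 genes had r above 0.95. The 6 libraries fall into their 2 groups, so a high r is shared by many genes that differ between the groups.

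The cell line was checked against marker genes. All 7 genes listed for HEK293T were tested, and their summed level was 496.0, 496.0 and 514.2 CPM in wild type and 359.6, 360.0 and 369.4 CPM in the mutant. The most abundant, VIM (vimentin, a cytoskeletal filament), was at 380.5 CPM in wild type and 199.4 in the mutant, and PAX2, a kidney developmental factor, was at 0.679 and 0.871 CPM, under 1 CPM in both. Among these markers VIM and NES were lower in the mutant and the keratins KRT8 (22.9 to 59.4 CPM) and KRT18 (34.4 to 60.5 CPM) were higher. Of 4 markers of HCT116, a colon line that the study also grew, CDX2 and VIL1 were counted at 18.7 and 26.4 CPM in wild type and were not called, and LGALS4 and KRT20 did not pass the filter. Blood and liver markers (PTPRC, CD3E and ALB) did not pass it either, and none of these 5 genes had more than 13 counts in any library. Whether the marker differences have a part in the kinase gene values was not tested.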

How the data were processed

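For 6 libraries of ribosomal RNA-depleted RNA, the authors aligned trimmed read pairs with HISAT2 (GRCh38), obtained gene counts with Rsubread on Ensembl genes, and deposited these counts unnormalized. No source used here states the strand or multi-mapping settings. Of 58395 identifiers, 57754 matched GENCODE v44, which gave symbols, positions and transcripts.

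Counts were scaled by TMM, filtered with filterByExpr and tested by quasi-likelihood in edgeR 4.0.16 (R 4.3.3), with p-values adjusted by Benjamini-Hochberg over all tested genes. The biological coefficient of variation was 4.11%. The pipeline was tested on simulated data. Libraries of a group differed beyond sampling noise (chi-square per degree of freedom 2.64 to 8.04). Sequences were aligned with Biopython 1.88. The ELL ChIP-seq table covers RDH genes only and was not used here.

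Named genes were the members, genes overlapping them, markers, the called genes with the largest rises and falls of each list (up to 2 each; with none called, the most abundant) and the 3 genes most like the CDK11 sum, CDK12 and CDK13; SF3B1, BRCA1, ATR and TOPBP1 were named after their values were seen. The members and lists were chosen with earlier results of these data known. Alternatives were other normalizations, DESeq2 1.42.0, other filters, thresholds and gene sets, leaving out each library, a replicate block, other lengths and windows, and those the text calls chosen later. The values of 1 further HEK293T marker gene are not reported here.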

Additional observations from a re-analysis of the deposited data

How the results depend on the processing

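No member changed sign under any of the 14 other settings run for it. CDK11A and CCNL2 were called in all 14, CDK11B in 13 and CCNL1 in 12, and the CDK11 sum in 15 of 15, the added sum with the noncoding gene included. The number of members called lower was 1, and 0 with library totals alone and with upper-quartile factors, where CCNL1 came under the fold limit. It was 3 with an adjusted p under 0.05 and no fold limit, where CDK12 and CDK13 were also called lower and SAP30BP higher. CCNK was not called in any alternative (0.06 to 0.21; adjusted p 5.68e-04 to 0.399, edgeR or DESeq2). Leaving out each library moved the CDK11 sum between 0.53 and 0.63 and CCNL1 between -0.59 and -0.52, and CDK13 had an adjusted p of up to 0.106 over its alternatives, with library totals alone.

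Library totals alone raised the median of all genes from 0.01 to 0.13, and called 4169 genes higher and 1840 lower (69.4% higher, beside 53.9% of those called with TMM). Relative to that median CCNL1 was at -0.55 with TMM and with library totals alone, and CDK12 at -0.27 with both. Over all genes, 1951 were higher and 1707 lower among protein-coding genes alone, where fewer genes were tested, and 7250 and 7170 with an adjusted p under 0.05 and no fold limit, beside 3071 and 2624. With the replicate block, 3055 genes were higher and 2631 lower, and no member's call changed. Same-numbered libraries did not deviate together (correlations -0.02 to 0.01). These correlations cannot tell whether libraries with the same number were grown or prepared together. The interval of CCNK, at 23.5 CPM the least abundant member per length, reached 0.20, and whether depth set its width was not tested.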
